A study of Homo sapiens with 8 samples.

Results

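The genes of the proteasome were followed in HCT-116 cells, an established human colorectal cancer line, after siRNA knockdown of *HHEX*, of *YAP1* with *WWTR1* (the gene of TAZ), or of *TEAD1* to *TEAD4*. They were taken as the rows whose symbol starts with PSMA, PSMB, PSMC, PSMD, PSME, PSMF or PSMG and a number, which gave 49 of the 20030 rows. *PSMC3IP*, a recombination gene that matches by name alone, was set apart, and its value was -0.08 in siHHEX and 0.04 in siYAP/TAZ on the log2 scale used below. Of the other 48 genes, 19 have PSMA or PSMB names (core particle), 20 PSMC or PSMD names (regulatory particle, with the base assembly factors *PSMD5*, *PSMD9* and *PSMD10*), 5 PSME or PSMF names (activators and an inhibitor) and 4 PSMG names (assembly chaperones). RNA was sequenced from 8 libraries, 2 with the control siRNA (siNC 1 and 2), 3 with siHHEX (siHHEX 1 to 3), 2 with siYAP/TAZ (1 and 2) and 1 with siTEAD1/2/3/4. All cells, the controls included, carried an siRNA by transient transfection, and the 3 siHHEX and 2 siYAP/TAZ libraries bear the same numbers as the siRNAs of the methods, so that libraries of a group may also differ in siRNA, which the labels do not state. The sources do not say whether the libraries came from separate cultures, so that the p-values measure the spread between these libraries, which may be technical.

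The proteasome degrades proteins that carry ubiquitin chains. Its core particle is a barrel of stacked rings, the outer ones of α subunits (PSMA), which gate the entrance, and the inner ones of β subunits (PSMB), which hold the catalytic sites. The regulatory particle caps the barrel: its ATPases (PSMC) unfold the substrate and its non-ATPase subunits (PSMD) bind and remove ubiquitin. PSME proteins are alternative caps, PSMF1 inhibits the core, and the PSMG chaperones assist assembly of the rings. Since the subunits are built into 1 complex, their genes are usually regulated together, and the factors NRF1 (*NFE2L1*) and NRF2 (*NFE2L2*) can raise many of them at once through antioxidant response elements (AREs) in their promoters.

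The targets were measured first. *HHEX* was at 8.60 and 9.06 FPKM in siNC and 3.25, 3.54 and 1.85 FPKM in siHHEX (log2 fold change -1.37 ± 0.217 (SE), adjusted p = 0.00540). *WWTR1* was at 6.80 and 6.72 FPKM in siNC and 2.64 and 2.58 FPKM in siYAP/TAZ, and *YAP1* at 20.2 and 19.7 FPKM in siNC and 6.90 and 8.39 FPKM in siYAP/TAZ. *YAP1* did not pass the test in siYAP/TAZ (-1.28 ± 0.383 (SE), adjusted p = 0.0681), although both libraries lay far below either control. In siHHEX, *YAP1* was at 5.77, 17.4 and 6.93 FPKM, so that siHHEX 1 and siHHEX 3 were as low as the siYAP/TAZ libraries and siHHEX 2 was near the controls (-1.07 ± 0.350 (SE), adjusted p = 0.0429). With the correction for GC content and length described below, *YAP1* did not pass in siHHEX (-0.75, adjusted p = 0.161) and passed in siYAP/TAZ (-1.39, adjusted p = 0.0354). *TEAD1* was also lower, at 6.99, 10.2 and 5.30 FPKM in siHHEX (-1.25 ± 0.208 (SE), adjusted p = 0.00641), and remained so with this correction (-0.91 ± 0.158 (SE), adjusted p = 0.0186). *TEAD2* was higher in siHHEX (0.78 ± 0.137 (SE), adjusted p = 0.00709) and did not pass with this correction (0.47, adjusted p = 0.0736). *TEAD4* did not pass in siHHEX as deposited (-0.11, adjusted p = 0.503) and was called lower with this correction (-0.50, adjusted p = 0.0313). *TEAD4* was lower at 12.5 and 13.6 FPKM in siYAP/TAZ (-0.63 ± 0.133 (SE), adjusted p = 0.0250). It was at 20.3 and 21.3 FPKM in siNC and 5.56 FPKM in siTEAD1/2/3/4, and *TEAD1* at 18.3 and 19.0 FPKM in siNC and 9.02 FPKM in siTEAD1/2/3/4. *TEAD2* was at 4.10 and 3.47 FPKM in siNC and 2.73 FPKM in siTEAD1/2/3/4. *TEAD3* was not lower in the siTEAD1/2/3/4 library, at 7.36 and 6.99 FPKM in siNC and 9.08 FPKM in siTEAD1/2/3/4.

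FPKM counts the fragments of a gene per length of transcript and per total of fragments in the library, so that genes can be compared per length. Changes are differences of log2(FPKM + 1), which understates the change of genes near or below 1 FPKM. A gene was tested when it reached 1 FPKM in at least 2 libraries (10677 genes, 45 of the 48), with limma in 1 fit of all 8 libraries, and it was called when its Benjamini-Hochberg adjusted p over all tested genes was under 0.05. The total of a library was between 331663 FPKM (siYAP/TAZ 1) and 383423 FPKM (siHHEX 3). Read numbers were not known, and the spacing of the lowest values put the value of 1 read between 0.917 and 1.06 times that in siNC 1. Pearson's r across tested genes, which are not independent replicates, was 0.997 between the siNC libraries, 0.981 to 0.988 between siHHEX libraries and 0.984 between siYAP/TAZ libraries.

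The constitutive proteasome was among the most abundant transcripts. The median member was at 73.2 FPKM in siNC, against 7.34 FPKM for the median tested gene. *PSMB4* (400.1 ± 1.81 FPKM, SD, n = 2), *PSMB3* (377 ± 9.45 FPKM), *PSMB1* (303 ± 24.9 FPKM) and *PSMA7* (295 ± 11.9 FPKM) had the highest siNC means. *PSMB1* and *PSMA7* did not differ beyond their spread. By family, the median siNC level was 219 FPKM for β subunits, 138 FPKM for α subunits, 76.6 FPKM for ATPases, 71.4 FPKM for non-ATPases, 64.8 FPKM for the PSMG chaperones and 32.8 FPKM for PSME genes. The lowest of the constitutive ring and ATPase genes was *PSMC6*, at 22.8 ± 0.316 FPKM. All members together held 1.39% and 1.37% of the FPKM total in siNC, 1.505%, 1.32% and 1.43% in siHHEX, 1.35% and 1.33% in siYAP/TAZ and 1.43% in siTEAD1/2/3/4.

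The 3 genes below the filter belong to other tissues or to inflammation. *PSMA8*, the α subunit of testis, was listed at 0 in every library. *PSMB11*, the catalytic subunit of the thymus, was listed at 0 in 7 libraries and at 0.0272 FPKM in siHHEX 3. *PSMB8*, the immunoproteasome counterpart of *PSMB5*, was at 0.111 and 0.0561 FPKM in siNC, 0.0748, 0.138 and 0.173 FPKM in siHHEX, 0.282 and 0.158 FPKM in siYAP/TAZ and 0.170 FPKM in siTEAD1/2/3/4. These values lie below what the filter admits, and no fold change is given for them.

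HHEX is a homeobox transcription factor, and siHHEX was set against siNC to find the transcripts that depend on it. Of the 45 tested proteasome genes, 8 rose and 8 fell. Transcripts of the inner ring rose (*PSMB3*, *PSMB4*, *PSMB5* and *PSMB10*), whereas the α gene *PSMA3*, the ATPases *PSMC1* and *PSMC2*, the lid and base genes *PSMD1*, *PSMD12* and *PSMD14*, the assembly factor *PSMD5* and the cap *PSME4* fell. *PSMC3*, *PSMD8*, *PSMG3* and *PSMG4* were also called higher, but *PSMG4* passed the filter only through its siHHEX libraries. Each count is 17.8% of the members, and 16.9% of all tested genes were called lower and 16.0% higher, shares close to those of the members. In 15 members all siHHEX libraries lay above both siNC libraries (33.1% of all tested genes) and in 15 all lay below (33.8%). The median change of the members was 0.09, beside -0.01 for all tested genes, and the full range ran from -0.65 to 0.65. In bulk RNA, a change in the make-up of the culture and a change in RNA per cell cannot be told apart. By the larger criterion of a 2-fold change with an unadjusted p under 0.05, no member was called, beside 1.63% of all tested genes.

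With either siNC library left out, 1 control remained, and its spread was taken from the other groups. The count of members was then 0 in both directions, and that of all tested genes 19 (without siNC 1) and 27 (without siNC 2), whereas the member median was 0.107 and 0.0687, beside 0.0898 with both. Without siHHEX 1 the members called were 4 lower and 4 higher (9.08% and 10.7% of all tested genes), and without siHHEX 3 they were 4 and 5 (11.5% and 12.0%). Without siHHEX 2, the library with *YAP1* near the controls, they were 9 and 13 (24.9% and 20.4%). *PSMA3*, *PSMD12*, *PSMD5*, *PSMB10*, *PSMC3* and *PSMG4* were called in all 3 of these fits. For *PSMG4* this is no support, since it passed the filter only through its siHHEX libraries.

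**Figure D1:**
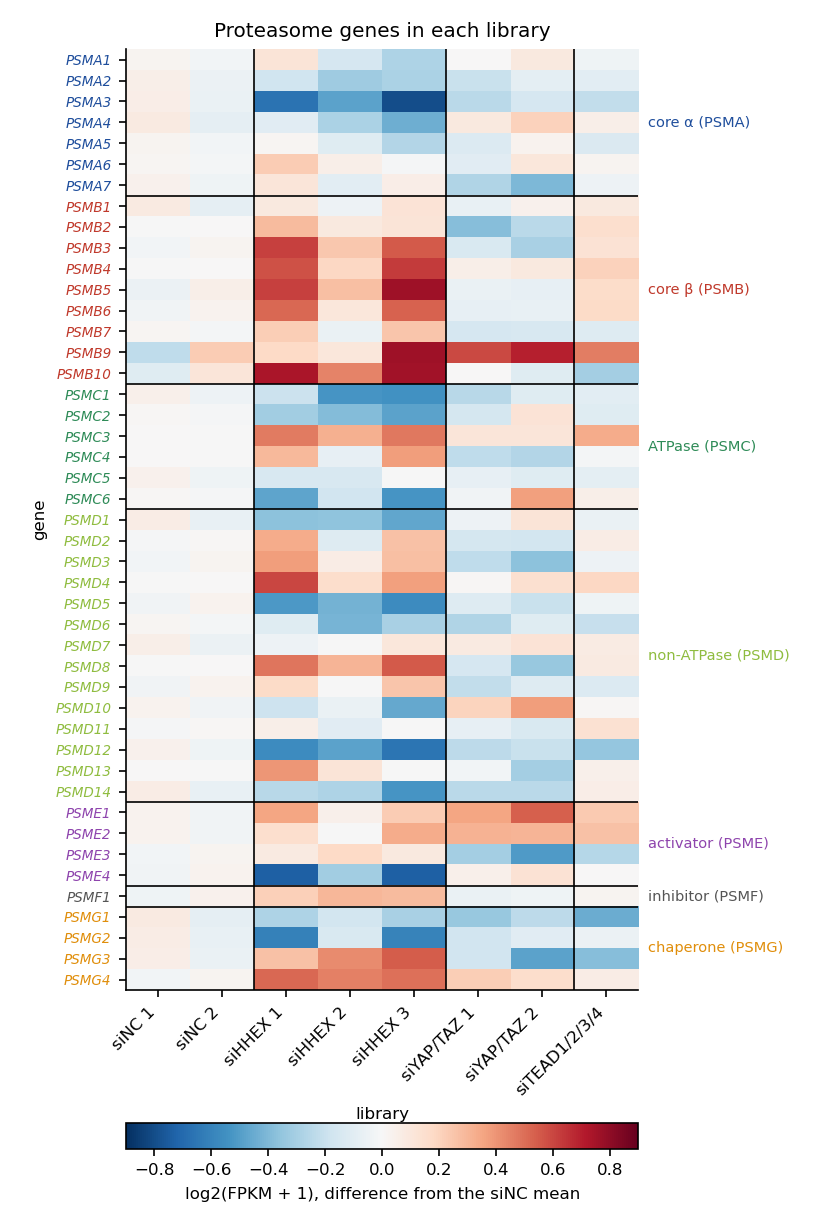
Difference of each tested member from the siNC mean on the log2(FPKM + 1) scale (colour), by gene (rows, grouped by family) and library (columns). Most β genes are red and most α genes pale or blue in the siHHEX columns, *PSMA3* is the lowest gene there (mean difference -0.65), and *PSMB9* and *PSME1* are red in the siYAP/TAZ columns.

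In siHHEX as deposited, 1 of the 7 tested genes of the α ring was called lower and 4 of the 9 of the β ring higher, beside 16.9% and 16.0% of all tested genes. All 9 tested β genes had a positive mean difference (median 0.38; 7 of the 9 in siHHEX 2 alone), and 5 of the 7 α genes a negative one (median -0.12), beside 5383 of all tested genes below 0 and 5294 above. The summed level of *PSMB1* to *PSMB7* was 1803 and 1799.9 FPKM in siNC, 2463, 1961 and 2498 FPKM in siHHEX, 1707 and 1708 FPKM in siYAP/TAZ and 1952 FPKM in siTEAD1/2/3/4. That of *PSMA1* to *PSMA7* was 1002 and 937 FPKM in siNC, 914, 831 and 811 FPKM in siHHEX, 872 and 902 FPKM in siYAP/TAZ and 923 FPKM in siTEAD1/2/3/4. The β sum was thus 1.80 and 1.92 times the α sum in the controls and 2.70, 2.36 and 3.08 times in the siHHEX libraries, which all lay above the controls, with siHHEX 2 the nearest to them. The ratio was 1.96 and 1.89 in siYAP/TAZ and 2.12 in siTEAD1/2/3/4. No test was made on these sums. The α genes are poorer in GC than the β genes, and with a correction for this, described below, both medians were 0.09, so that the sign of the α median turned, and 0 β genes were called.

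**Figure D2:**
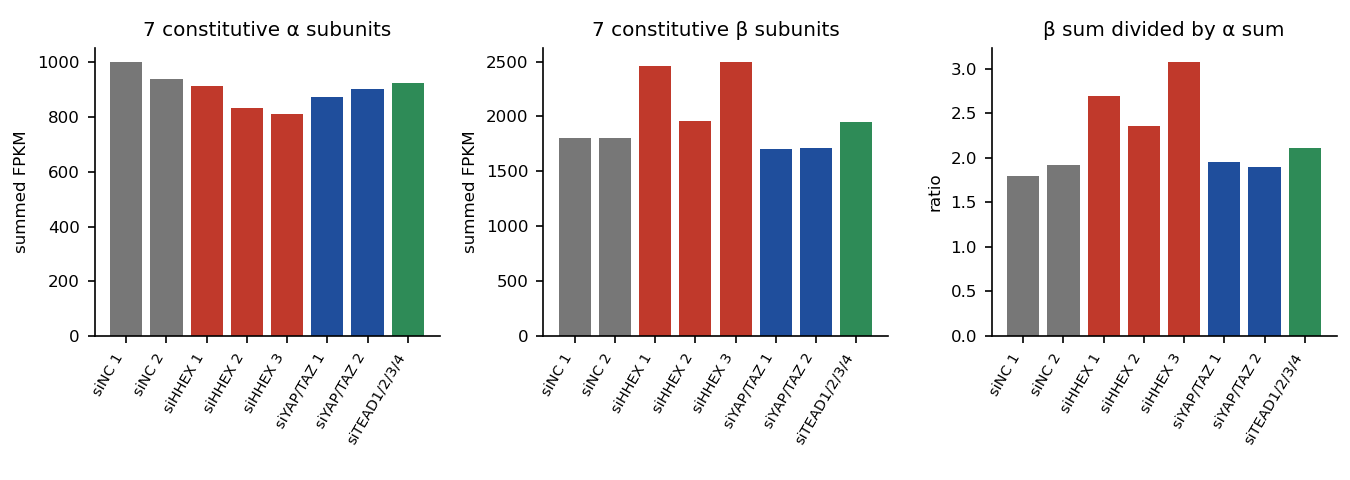
Summed FPKM of the α genes *PSMA1* to *PSMA7* (left), of the β genes *PSMB1* to *PSMB7* (middle) and the ratio of the sums (right), 1 bar per library coloured by group, with no error bars since each bar is 1 library. The β bars of siHHEX 1 and siHHEX 3 stand above all others (2463 and 2498 FPKM), and the ratio reaches 3.08 in siHHEX 3.

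*PSMA3*, which encodes α7, gave the strongest fall of the members. It lies on chromosome 14 from 58244843 to 58272012 (forward strand) in GRCh38 and was at 199 and 184 FPKM in siNC, 120.0, 136 and 109 FPKM in siHHEX, 162 and 172 FPKM in siYAP/TAZ and 164 FPKM in siTEAD1/2/3/4. The 3 siHHEX values lay below every other library (log2 fold change -0.65 ± 0.116 (SE), adjusted p = 0.00744), and the siYAP/TAZ and siTEAD1/2/3/4 values lay between siHHEX and siNC. Of the other α genes, *PSMA2* and *PSMA4* had differences of -0.26 and -0.28 that did not pass (adjusted p = 0.0722 and 0.108), and *PSMA1*, *PSMA5*, *PSMA6* and *PSMA7* lay between -0.12 and 0.09.

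Of the catalytic subunits among the β genes, *PSMB5* rose in siHHEX, and *PSMB6* and *PSMB7* did not pass. *PSMB5*, the chymotrypsin-like subunit and the main target of bortezomib (chromosome 14 from 23016543 to 23035230 (reverse strand)), was at 167 and 179 FPKM in siNC, 266, 209 and 295 FPKM in siHHEX, 166 and 164 FPKM in siYAP/TAZ and 194 FPKM in siTEAD1/2/3/4. All siHHEX values lay above all others (0.55 ± 0.139 (SE), adjusted p = 0.0186), with siHHEX 2 the lowest of them. *PSMB6*, the caspase-like subunit, was at 214 and 224 FPKM in siNC, 314, 236 and 317 FPKM in siHHEX, 208 and 209 FPKM in siYAP/TAZ and 247 FPKM in siTEAD1/2/3/4, and it missed the threshold (0.38 ± 0.134 (SE), adjusted p = 0.0525). *PSMB7*, the trypsin-like subunit, was at 265 and 259 FPKM in siNC, 306, 251 and 311 FPKM in siHHEX, 236 and 236 FPKM in siYAP/TAZ and 241 FPKM in siTEAD1/2/3/4, with siHHEX 2 below both controls (0.14 ± 0.112 (SE), adjusted p = 0.352). The structural subunits *PSMB3* and *PSMB4* rose by 0.47 and 0.46 (adjusted p = 0.0207 and 0.0267), while *PSMB1* and *PSMB2* were at 0.06 and 0.16 and did not pass.

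The inducible subunits replace the catalytic ones in the immunoproteasome, which shapes the peptides shown on MHC class I. *PSMB10*, the counterpart of *PSMB7* (chromosome 16 from 67934506 to 67936864 (reverse strand)), was at 20.4 and 23.9 FPKM in siNC, 37.4, 30.5 and 38.0 FPKM in siHHEX, 22.1 and 20.4 FPKM in siYAP/TAZ and 17.7 FPKM in siTEAD1/2/3/4. It gave the highest difference of the members in siHHEX (0.65 ± 0.138 (SE), adjusted p = 0.0115), with all 3 libraries above the other 5. *PSMB9*, the counterpart of *PSMB6*, was at 0.784 and 1.46 FPKM in siNC, 1.37, 1.246 and 2.56 FPKM in siHHEX, 2.16 and 2.41 FPKM in siYAP/TAZ and 1.88 FPKM in siTEAD1/2/3/4. The controls alone differed by nearly 2-fold, and neither siHHEX (0.35 ± 0.215 (SE), adjusted p = 0.223) nor siYAP/TAZ (0.65 ± 0.236 (SE), adjusted p = 0.114) passed. *PSMB9* shares exon sequence on the opposite strand with *PSMB8* and on its own strand with *PSMB8-AS1* in GENCODE, so that its few fragments may belong to more than 1 gene. Together the inducible subunits were at 3.30% and 3.84% of the summed level of *PSMB5* to *PSMB7* in siNC, 4.39%, 4.57% and 4.41% in siHHEX, 4.03% and 3.76% in siYAP/TAZ and 2.89% in siTEAD1/2/3/4, and nearly all of this was *PSMB10*.

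**Figure D3:**
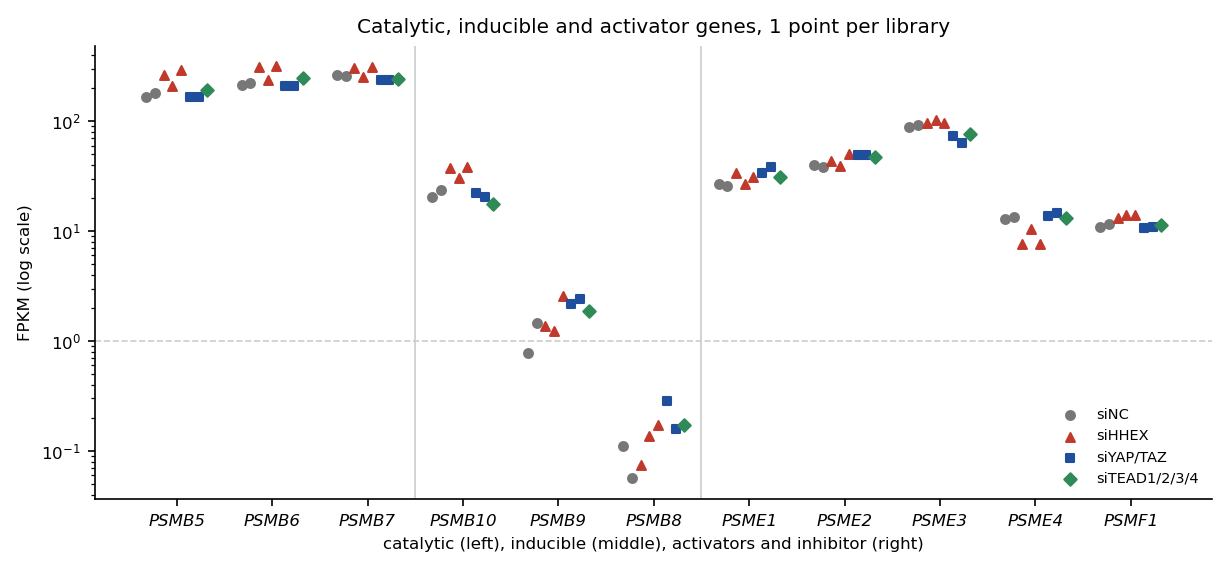
FPKM on a log axis for the catalytic (*PSMB5* to *PSMB7*), inducible (*PSMB8* to *PSMB10*), activator (*PSME1* to *PSME4*) and inhibitor (*PSMF1*) genes, 1 point per library, with marker and colour for the group and a dashed line at 1 FPKM. *PSMB10* sits near 20 FPKM in siNC and at 30.5 to 38.0 FPKM in siHHEX, *PSMB9* and *PSMB8* sit near or below the filter, and *PSME4* is lower in all siHHEX libraries than in the others.

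In the regulatory particle, calls in siHHEX went in both directions as deposited, and none of its genes was called with the GC and length correction. Of the 6 ATPases, *PSMC1* (-0.42 ± 0.135 (SE), adjusted p = 0.0396) and *PSMC2* (-0.40 ± 0.122 (SE), adjusted p = 0.0366) fell and *PSMC3* rose (0.42 ± 0.1003 (SE), adjusted p = 0.0159). All 6 are present once each in the same ring. With the correction *PSMC1* was at -0.34, *PSMC2* at 0.0047 and *PSMC3* at 0.10, and none passed (adjusted p = 0.1505, 0.982 and 0.482). *PSMC3* was at 89.9 and 89.1 FPKM in siNC, 124, 112 and 125 FPKM in siHHEX, 96.4 and 96.6 FPKM in siYAP/TAZ and 113 FPKM in siTEAD1/2/3/4, with siHHEX above siNC and siYAP/TAZ in every library and siTEAD1/2/3/4 just above siHHEX 2. *PSMC1* has 13 named pseudogenes in GENCODE and overlaps exons of *NRDE2* on the other strand, so that its level is uncertain. Of the 14 non-ATPases, 4 fell and 1 rose, and 9 did not pass. These counts and those of the ATPases stand beside 16.9% of all tested genes called lower in siHHEX and 16.0% higher. *PSMD12*, a lid subunit (chromosome 17 from 67337916 to 67366605 (reverse strand)), was at 54.5 and 51.6 FPKM in siNC, 35.4, 37.7 and 33.3 FPKM in siHHEX, 44.97 and 46.1 FPKM in siYAP/TAZ and 41.4 FPKM in siTEAD1/2/3/4 and fell in siHHEX (-0.57 ± 0.109 (SE), adjusted p = 0.00870). *PSMD8*, also in the lid, rose (0.44 ± 0.110 (SE), adjusted p = 0.0178), and the scaffold *PSMD1* fell (-0.40 ± 0.113 (SE), adjusted p = 0.0270).

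Of the ubiquitin receptors and the deubiquitinase of the lid, only *PSMD14* passed in siHHEX. *PSMD4*, a receptor for ubiquitin chains, was at 118 and 119 FPKM in siNC and 180.1, 132 and 154 FPKM in siHHEX and just missed the threshold (0.38 ± 0.133 (SE), adjusted p = 0.0556). *PSMD2*, which binds ubiquitin-like domains, was at 136 and 138 FPKM in siNC and 173, 126 and 164 FPKM in siHHEX, with siHHEX 2 below the controls (0.16 ± 0.137 (SE), adjusted p = 0.373). *PSMD14*, which removes the ubiquitin chain before entry, was at 95.5 and 87.2 FPKM in siNC, 76.6, 75.1 and 62.9 FPKM in siHHEX, 76.9 and 77.1 FPKM in siYAP/TAZ and 95.1 FPKM in siTEAD1/2/3/4. It fell in siHHEX as deposited (-0.35 ± 0.119 (SE), adjusted p = 0.0472) and did not pass with the GC and length correction (-0.14, adjusted p = 0.388), and the siYAP/TAZ values lay just above those of siHHEX 1 and 2 without passing (-0.24 ± 0.130 (SE), adjusted p = 0.259).

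Of the caps, only *PSME4* was called in siHHEX. *PSME4* encodes PA200, a nuclear cap that opens the core without ATP (chromosome 2 from 53864069 to 53970993 (reverse strand)), and was at 13.0 and 13.5 FPKM in siNC, 7.58, 10.5 and 7.56 FPKM in siHHEX, 13.7 and 14.6 FPKM in siYAP/TAZ and 13.3 FPKM in siTEAD1/2/3/4. The siHHEX values lay below the other 5 libraries, and siHHEX 2 was the highest of them (-0.59 ± 0.152 (SE), adjusted p = 0.0196). *PSME1* and *PSME2*, which form the interferon-inducible PA28αβ cap, were at 0.21 and 0.16, and *PSME3*, the nuclear PA28γ, at 0.12, and none of these passed. The inhibitor *PSMF1* was at 10.9 and 11.6 FPKM in siNC and 13.2, 14.0 and 13.9 FPKM in siHHEX, with all siHHEX values above the controls (0.26 ± 0.113 (SE), adjusted p = 0.0944).

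Of the 4 assembly chaperones, *PSMG3* and *PSMG4* were called higher in siHHEX and *PSMG1* and *PSMG2* did not pass. PSMG1 works with PSMG2, and PSMG3 with PSMG4, as heterodimers on the α ring. *PSMG3* was at 58.8 and 54.2 FPKM in siNC, 68.1, 76.2 and 82.8 FPKM in siHHEX, 49.8 and 40.1 FPKM in siYAP/TAZ and 43.1 FPKM in siTEAD1/2/3/4 (0.41 ± 0.134 (SE), adjusted p = 0.0425 in siHHEX). *PSMG4* was at 0.627 and 0.676 FPKM in siNC, 1.36, 1.26 and 1.33 FPKM in siHHEX, 0.924 and 0.840 FPKM in siYAP/TAZ and 0.728 FPKM in siTEAD1/2/3/4. It was called higher in siHHEX (0.49 ± 0.114 (SE), adjusted p = 0.0147). Only its siHHEX libraries reached the 1 FPKM of the filter. It thus entered the test through the group in which it is high, and the call is no support for a rise. At this low level the log2(FPKM + 1) scale compresses the change, and the mean of the siHHEX libraries came to 203% of that of siNC. *PSMG4* shares exon positions with *SLC22A23* and *TUBB2B* on the other strand, so that its reads cannot be told from theirs if strand was not used. *PSMG2* was at 76.4 and 69.9 FPKM in siNC and 47.6, 66.5 and 47.9 FPKM in siHHEX and lay at the threshold (-0.45 ± 0.154 (SE), adjusted p = 0.0503), with siHHEX 2 near the controls. *PSMG1* was at 77.5 and 69.3 FPKM in siNC and 60.4, 65.3 and 59.5 FPKM in siHHEX (-0.24 ± 0.110 (SE), adjusted p = 0.110). Of the base assembly factors, *PSMD5* was at 30.5 and 32.0 FPKM in siNC, 21.5, 23.0 and 20.8 FPKM in siHHEX, 28.7 and 27.0 FPKM in siYAP/TAZ and 30.4 FPKM in siTEAD1/2/3/4 and fell in siHHEX (-0.50 ± 0.111 (SE), adjusted p = 0.0126), whereas *PSMD9* (0.14) and *PSMD10* (-0.23) did not pass.

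The direction of a member in siHHEX followed the base composition of its transcript. Of the 17 members with under 45% GC in the canonical GENCODE transcript, 7 fell and 0 rose (*PSMA2*, *PSMC6* and *PSMG2* were lower there at an unadjusted p under 0.05). Of the 20 members with 50% or more, 8 rose and 0 fell, and of the 8 members between, *PSMC1* fell. All tested genes showed the same division: 38.7% of those under 45% GC were called lower and 0.948% higher, and 1.58% and 30.7% of those at 50% or more. Across the 45 members Spearman's rho between GC content and the siHHEX change was 0.859, and across all 10349 tested genes with a GC value it was 0.731, given as a description since the genes share their libraries. Within siHHEX 1, 2 and 3 the members' rho was 0.834, 0.750 and 0.861. It was 0.165 and -0.228 in siYAP/TAZ 1 and 2, 0.351 in siTEAD1/2/3/4 and, for siNC 2 against the siNC mean, 0.462. The rings differ in composition, with a median of 41.4% GC for the α genes and 52.4% for the β genes. The most GC-rich α gene, *PSMA7* (51.9%), was at 0.02, and the least GC-rich β gene, *PSMB2* (44.1%), at 0.16.

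When the trend on GC content and transcript length was taken off each library, 1 member was lower in siHHEX and 0 were higher, beside 3.19% and 3.58% of all tested genes. The member was *PSMA3* (-0.47 ± 0.0877 (SE), adjusted p = 0.0228). Among the members, 4 in each direction had an unadjusted p under 0.05 after this correction, beside 13.0% lower and 13.9% higher of all tested genes. *PSMB10* went from 0.65 to 0.13, *PSMB5* from 0.55 to 0.25, *PSMD12* from -0.57 to -0.09 and *PSME4* from -0.59 to -0.22. *PSMB2* went from 0.16 to 0.45, *PSMF1* from 0.26 to 0.38 and *PSMA5* from -0.12 to 0.34, and none of these 3 passed (adjusted p = 0.0532, 0.0509 and 0.106). *PSMC5* went from -0.09 to -0.33 and *PSMA7* from 0.02 to -0.25, and neither passed (adjusted p = 0.0514 and 0.11998). The median of the regulatory members went from -0.06 to 0.00, that of the activator group from 0.16 to -0.06 and that of the chaperones from 0.08 to -0.00. The correction removes whatever follows composition, from the cells or from the libraries, and the source of the trend was not tested.

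**Figure D4:**
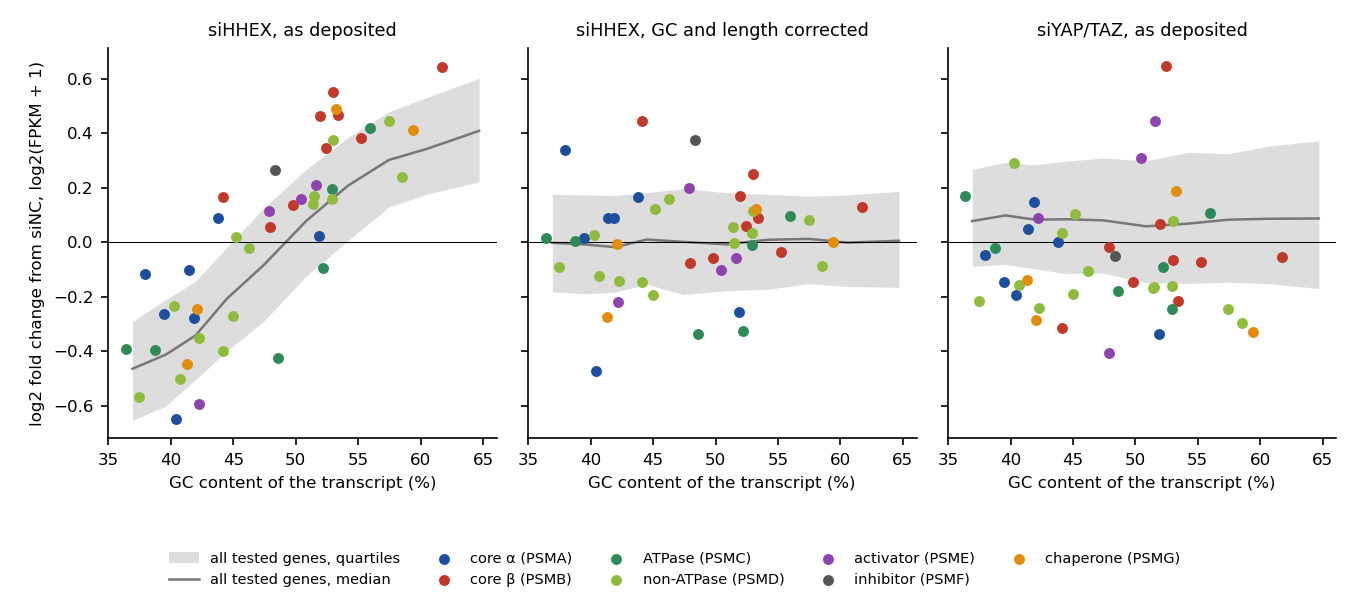
Log2 fold change of each member against the GC content of its transcript, coloured by family, for siHHEX as deposited (left), siHHEX after the correction (middle) and siYAP/TAZ as deposited (right); the grey line and band are the median and quartiles of all tested genes in 10 bins of GC content. In siHHEX the members rise with GC along the grey line (rho 0.859), after the correction they scatter about 0 (rho 0.173), and in siYAP/TAZ there is no slope (rho -0.113).

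Promoters were read because AREs are the known shared element of proteasome genes. RefSeq promoters (GRCh38, from 250 bases before to 50 bases after a start) were matched for 42 of the 48 proteasome genes, with 51 promoters in all. The ARE core TGACNNNGC, on either strand, was in 15 of the 51 (29.4%), beside 13.3% of all promoters of the table and 14.6% of those of tested genes. The CCAAT box CCAAT was in 39.2%, 34.6% and 34.9% of these sets, the GC box GGGCGG in 68.6%, 44.95% and 69.1%, and the TEAD core CATTCC in 13.7%, 14.0% and 11.2%, with both strands searched and matches of different motifs free to share bases. Of the 15 tested members with the ARE core, 4 fell and 1 rose in siHHEX (median -0.09), and of the 24 with a promoter and no match 4 fell and 6 rose (median 0.05), beside 16.9% of all tested genes lower and 16.0% higher. The difference between these groups was not tested, and with the GC and length correction none of the 5 called members with the core was called, with *PSMB3* at 0.09, *PSMD1* at -0.14, *PSMD12* at -0.09, *PSMD5* at -0.12 and *PSME4* at -0.22. The promoters of the 5 called members with the core are printed below, in the direction of the gene, since the same letters are in the windows of genes called in opposite directions as deposited. Capitals mark the core, read on the gene's strand or, in *PSME4*, as its reverse complement, and *PSMB3* rose whereas the other four fell.
PSMB3 chr17:38752491-38752790 (+): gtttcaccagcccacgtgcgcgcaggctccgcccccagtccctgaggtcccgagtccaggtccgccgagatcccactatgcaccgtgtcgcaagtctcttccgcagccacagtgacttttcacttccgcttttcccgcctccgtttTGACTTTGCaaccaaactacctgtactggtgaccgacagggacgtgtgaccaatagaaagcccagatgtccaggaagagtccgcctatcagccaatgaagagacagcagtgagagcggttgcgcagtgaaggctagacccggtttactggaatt
PSMD1 chr2:231056617-231056916 (+): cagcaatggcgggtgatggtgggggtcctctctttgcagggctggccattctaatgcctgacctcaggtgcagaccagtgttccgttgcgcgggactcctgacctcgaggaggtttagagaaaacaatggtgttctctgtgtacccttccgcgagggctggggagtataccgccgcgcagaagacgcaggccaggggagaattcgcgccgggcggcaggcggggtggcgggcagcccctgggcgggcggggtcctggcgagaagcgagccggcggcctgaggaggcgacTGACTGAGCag
PSMD12 chr17:67366528-67366827 (-): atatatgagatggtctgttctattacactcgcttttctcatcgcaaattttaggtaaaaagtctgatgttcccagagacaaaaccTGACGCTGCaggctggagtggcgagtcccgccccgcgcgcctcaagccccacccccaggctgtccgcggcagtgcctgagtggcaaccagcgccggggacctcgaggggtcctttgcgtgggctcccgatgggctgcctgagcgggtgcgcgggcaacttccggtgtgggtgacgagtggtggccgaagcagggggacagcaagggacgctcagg
PSMD5 chr9:120842873-120843172 (-): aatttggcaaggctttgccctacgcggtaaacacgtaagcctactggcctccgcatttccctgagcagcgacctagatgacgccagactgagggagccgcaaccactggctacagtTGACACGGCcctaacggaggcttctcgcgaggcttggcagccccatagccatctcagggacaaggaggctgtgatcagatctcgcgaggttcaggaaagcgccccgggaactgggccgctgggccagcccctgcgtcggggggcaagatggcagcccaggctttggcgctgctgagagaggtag
PSME4 chr2:53970944-53971243 (-): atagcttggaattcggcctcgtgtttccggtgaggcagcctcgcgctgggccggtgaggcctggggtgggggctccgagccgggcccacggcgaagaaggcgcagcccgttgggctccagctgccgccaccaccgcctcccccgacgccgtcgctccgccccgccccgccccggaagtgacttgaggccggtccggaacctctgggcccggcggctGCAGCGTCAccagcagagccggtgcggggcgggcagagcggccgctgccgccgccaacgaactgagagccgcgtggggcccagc
The core starts 104 bases before the start of *PSMB3*, 165 before that of *PSMD12*, 134 before that of *PSMD5* and 34 before that of *PSME4*, and in *PSMD1* it lies 39 bases after the start. A match is a description of the letters and no evidence of binding.

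YAP and TAZ are coactivators of the TEAD factors, and siYAP/TAZ was set against siNC in the same fit. No member was called in either direction with limma, beside 2.13% of all tested genes lower and 6.15% higher. At an unadjusted p under 0.05, 5 members were lower (*PSMA7*, *PSMB2*, *PSMD3*, *PSME3* and *PSMG1*) and 3 higher (*PSMB9*, *PSME1* and *PSME2*), beside 7.85% and 19.4% of all tested genes. No member reached a 2-fold change with an unadjusted p under 0.05, beside 1.57% of all tested genes. Most members lay below 0, with a median of -0.09 and 30 of 45 negative differences, while the median of all tested genes was 0.08 and 4239 of 10677 were below 0. Both siYAP/TAZ libraries lay below both siNC libraries in 26 members (24.8% of all tested genes) and above in 11 (42.9%). The member median was -0.10 in both siYAP/TAZ libraries, beside 0.07 and 0.09 for all tested genes. The classes were at -0.06 for the core, -0.16 for the regulatory particle, -0.21 for the chaperones and 0.09 for the activators, and the last turned to -0.05 with the correction and to -0.01 with median scaling. These medians carry no test.

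None of the caps passed in siYAP/TAZ as deposited. *PSME3* was at 89.2 and 92.2 FPKM in siNC, 95.8, 103 and 96.4 FPKM in siHHEX, 73.3 and 63.3 FPKM in siYAP/TAZ and 75.9 FPKM in siTEAD1/2/3/4, with both siYAP/TAZ values and the siTEAD1/2/3/4 value below the other 5 libraries (-0.41 ± 0.118 (SE), adjusted p = 0.0638). *PSME1* was at 26.9 and 25.6 FPKM in siNC, 33.9, 27.1 and 30.9 FPKM in siHHEX, 33.8 and 38.6 FPKM in siYAP/TAZ and 31.1 FPKM in siTEAD1/2/3/4, and *PSME2* at 40.3 and 38.6 FPKM in siNC, 43.8, 39.2 and 49.9 FPKM in siHHEX, 49.3 and 48.9 FPKM in siYAP/TAZ and 47.5 FPKM in siTEAD1/2/3/4. For *PSME1* siYAP/TAZ 2 was the highest library and siYAP/TAZ 1 was close to siHHEX 1 (0.45 ± 0.142 (SE), adjusted p = 0.0827), and for *PSME2* siHHEX 3 was as high as siYAP/TAZ (0.31 ± 0.136 (SE), adjusted p = 0.180). In the corrected values, *PSMA7* (-0.42 ± 0.09997 (SE), adjusted p = 0.0337), *PSME3* (-0.48 ± 0.104 (SE), adjusted p = 0.0263) and *PSMG1* (-0.36 ± 0.0938 (SE), adjusted p = 0.0438) were called lower and no member higher, beside 6.13% and 5.32% of all tested genes, and 12 members were lower and 2 higher at an unadjusted p under 0.05, beside 16.5% and 14.8% of all tested genes. *PSMA7*, which encodes α4, was at 304 and 287 FPKM in siNC and 245 and 223 FPKM in siYAP/TAZ. The corrected median of the members was -0.19, beside -0.02 for all tested genes. As deposited, a fit of only siNC and siYAP/TAZ called *PSMA7* and *PSME3* lower and *PSME1* higher (5.05% of all tested genes lower and 11.4% higher), as did the fit without siHHEX 2 (3.46% and 8.88%). The fit without siHHEX 3 called *PSMB9* higher (8.56% of all tested genes).

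No test was made on the single siTEAD1/2/3/4 library, which has no replicate to give its own spread. As a yardstick chosen after the values were seen, a 1.25-fold difference on the log2(FPKM + 1) scale was passed between the siNC libraries by 2.25% of all tested genes and by 1 member, *PSMB9*. In siTEAD1/2/3/4, *PSMG1* (-0.45), *PSMG3* (-0.38) and *PSMD12* (-0.35) lay lower by this measure, beside 8.95% of all tested genes, and *PSMB9* (0.46) and *PSMC3* (0.33) higher, beside 17.8%. *PSMG1* was at 77.5 and 69.3 FPKM in siNC, 60.4, 65.3 and 59.5 FPKM in siHHEX, 57.7 and 62.2 FPKM in siYAP/TAZ and 53.5 FPKM in siTEAD1/2/3/4, so that the siTEAD1/2/3/4 library was the lowest of the 8. The member median was 0.01, beside 0.06 for all tested genes. The caps *PSME3*, *PSME1*, *PSME2* and *PSME4* were at -0.25, 0.24, 0.26 and 0.0023, beside -0.41, 0.45, 0.31 and 0.09 in siYAP/TAZ, and both comparisons use the same siNC libraries.

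siHHEX and siYAP/TAZ were also compared with each other. The siNC values do not enter this difference, but they enter the estimate of its spread. Of the members, 13 were higher in siHHEX and 9 lower, beside 13.5% and 25.9% of all tested genes. Of the members that is 28.9% and 20.0%. The median of all tested genes lay at -0.13 in this contrast and that of the members at 0.07. With each library centred on its median difference, 20 members were higher and 5 lower, beside 19.1% and 17.2% of all tested genes, so that the split depends on the scaling. The higher genes were *PSMA7*, 6 β genes (*PSMB2* to *PSMB6* and *PSMB10*), *PSMC3*, *PSMC4*, *PSMD3*, *PSMD8*, *PSME3* and *PSMG3*, and *PSMD8* (0.69 ± 0.110 (SE), adjusted p = 0.00462), *PSMB3* (0.68 ± 0.122 (SE), adjusted p = 0.00560) and *PSMG3* (0.74 ± 0.134 (SE), adjusted p = 0.00579) had the lowest p. *PSME4* (-0.68 ± 0.152 (SE), adjusted p = 0.0104) and *PSMC6* (-0.56 ± 0.158 (SE), adjusted p = 0.0220) were the furthest below. Without siNC 1 or siNC 2, and in a fit of these groups alone, the counts were 9 higher and 6 lower, beside 9.44% and 18.5% of all tested genes without siNC 1. Without siYAP/TAZ 2 only *PSMB2* and *PSMD8* were called, both higher, beside 3.82% of all tested genes higher and 5.79% lower. Without siYAP/TAZ 1 the counts were 8 higher and 6 lower (9.66% and 17.9% of all tested genes), without siHHEX 1 they were 8 and 5 (10.9% and 16.9%), and without siHHEX 3 they were 10 and 4 (10.9% and 19.7%).

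In the corrected values, 7 members were higher in siHHEX than in siYAP/TAZ and 1 lower, beside 5.47% and 3.42% of all tested genes. *PSMB2* was at 67.0 and 67.1 FPKM in siNC, 82.1, 71.3 and 72.9 FPKM in siHHEX, 51.1 and 56.4 FPKM in siYAP/TAZ and 74.6 FPKM in siTEAD1/2/3/4. The siHHEX values lay above both siYAP/TAZ values (0.48 ± 0.111 (SE), adjusted p = 0.0118 as deposited, 0.85 ± 0.115 (SE), adjusted p = 0.0114 corrected), and its controls lay between. *PSME3* (0.68 ± 0.0953 (SE), adjusted p = 0.0121), *PSMB3* (0.40 ± 0.104 (SE), adjusted p = 0.0490) and *PSMD8* (0.41 ± 0.0901 (SE), adjusted p = 0.0332) were called with and without the correction. *PSMF1* (0.57), *PSMA5* (0.46) and *PSMG1* (0.35) were called higher with it and not without, *PSMA5* from -0.07 as deposited, and *PSME1* lower (-0.42 ± 0.104 (SE), adjusted p = 0.0410).

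**Figure D5:**
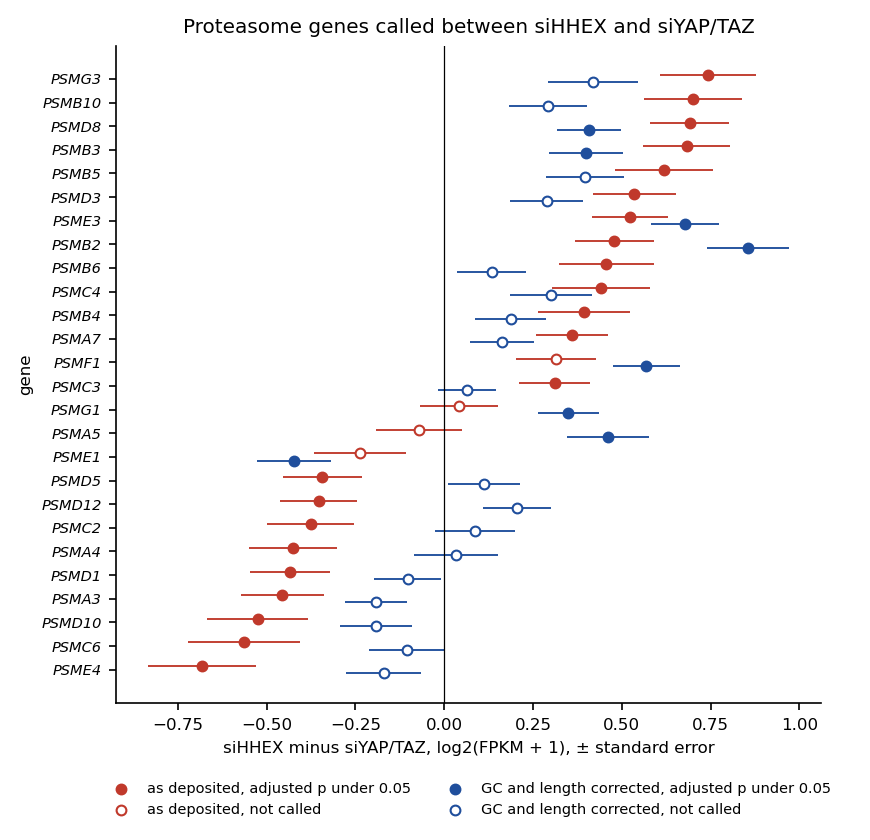
siHHEX minus siYAP/TAZ on the log2(FPKM + 1) scale with its standard error for the 26 members called in this contrast as deposited (red) or after the correction (blue); filled points have an adjusted p under 0.05. Most differences shrink with the correction, *PSMA4*, *PSMC2*, *PSMD5* and *PSMD12* change sign and lose their call, and *PSMB2* grows to 0.85.

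Genes that act with the proteasome but have other names were read from lists. Their counts in siHHEX stand beside 16.9% of all tested genes called lower and 16.0% higher, and nothing particular to a list is read from them. Of 11 proteasome partners, 3 fell and 1 rose in siHHEX. *ZFAND5*, an activator of the 26S particle (-0.70 ± 0.172 (SE), adjusted p = 0.0171), *ECPAS*, which holds the core and cap together (-0.49 ± 0.146 (SE), adjusted p = 0.0325), and the deubiquitinase *USP14* (-0.41 ± 0.136 (SE), adjusted p = 0.0457) fell, and *PAAF1*, a factor of base assembly, rose (0.58 ± 0.183 (SE), adjusted p = 0.0379). With the correction, *PAAF1* was called (0.81) and the 3 falls were lost, with *ZFAND5* at -0.33, *ECPAS* at -0.20 and *USP14* on the other side of 0 at 0.06 (adjusted p = 0.223, 0.272 and 0.734). *POMP*, the maturation factor of the β ring, was at 138 and 129 FPKM in siNC and 107, 119 and 89.2 FPKM in siHHEX and did not pass (-0.36 ± 0.131 (SE), adjusted p = 0.0622). *ADRM1*, a ubiquitin receptor, was the 1 partner called in siYAP/TAZ, at 120.1 and 121 FPKM in siNC and 85.7 and 82.0 FPKM in siYAP/TAZ (-0.52 ± 0.125 (SE), adjusted p = 0.0382). Of the 10 genes that control proteasome transcription, 4 fell in siHHEX and 0 rose as deposited, and 2 were lower and 0 higher with the correction, beside 3.19% and 3.58% of all tested genes. *NFE2L2* was at 37.8 and 34.9 FPKM in siNC and 20.8, 21.2 and 17.8 FPKM in siHHEX, with all siHHEX values below every other library (-0.84 ± 0.126 (SE), adjusted p = 0.00470), and stayed lower after the correction (-0.55 ± 0.0951 (SE), adjusted p = 0.0186). *NFE2L1* was at 36.7 and 39.8 FPKM in siNC and 56.3, 51.0 and 32.6 FPKM in siHHEX, with siHHEX 3 below both controls and the other two above (0.24 ± 0.202 (SE), adjusted p = 0.359). *DDI2*, the protease that activates NRF1 (-0.58), *NFYB* (-0.65) and *MAFF* (-0.49) were the other three, and *MAFF* (-0.96 ± 0.149 (SE), adjusted p = 0.0102) and *MAFK* (-0.67 ± 0.155 (SE), adjusted p = 0.0347) fell in siYAP/TAZ. With the correction, *MAFF* also remained called in siHHEX (-0.82, adjusted p = 0.0195), whereas *DDI2* (-0.23, adjusted p = 0.336) and *NFYB* (-0.16, adjusted p = 0.379) did not. The median of this list was -0.37 in siHHEX as deposited, beside -0.01 for all tested genes, and -0.19 corrected.

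Among the shuttle and segregase genes, the shuttles *RAD23B* (-0.74 ± 0.135 (SE), adjusted p = 0.00789) and *UBQLN1* (-0.64 ± 0.122 (SE), adjusted p = 0.00867) fell in siHHEX. *RAD23B* was at 146 and 148 FPKM in siNC and 81.1, 105 and 79.9 FPKM in siHHEX, with every siHHEX value below both controls and siHHEX 2 the highest of them. With the correction *RAD23B* was at -0.40 and *UBQLN1* at -0.34, and neither passed (adjusted p = 0.0524 and 0.0670). *VCP*, the segregase itself, was at 0.16 and did not pass. Among the ubiquitin and E1 genes, the ubiquitin-activating enzyme *UBA6* fell in siHHEX (-0.78), and 0 passed in siYAP/TAZ. Of the 8 genes of antigen processing, *TAP1*, a peptide transporter subunit, rose in siHHEX (0.52 ± 0.121 (SE), adjusted p = 0.0145), and 0 passed in siYAP/TAZ, where the median was 0.33, beside 0.08 for all tested genes. *B2M*, the light chain of MHC class I, was at 113, 130.2 and 135 FPKM in siHHEX and 178 and 169 FPKM in siYAP/TAZ and was called lower in siHHEX than in siYAP/TAZ (adjusted p = 0.0129). In this contrast 4 of the 8 genes were called lower and 0 higher, beside 25.9% and 13.5% of all tested genes. With the correction *UBA6* (-0.26, adjusted p = 0.168), *TAP1* (0.26, adjusted p = 0.167) and *B2M* in the last contrast (-0.17, adjusted p = 0.401) did not pass. *TAPBP* was the 1 antigen processing gene called lower in that contrast with the correction (-0.71, adjusted p = 0.0444), beside 3.42% of all tested genes. Its lowest library was siHHEX 2, at 7.30 FPKM.

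The cell line was checked against its markers. *KRT8*, *KRT18*, *KRT19* and *EPCAM* were abundant, with *KRT8* at 1591 and 1707 FPKM in siNC, whereas the enterocyte genes *CDH17*, *VIL1* and *LGALS4* were at or near 0. The summed level of the 8 epithelial markers was 3371 and 3513 FPKM in siNC, 3114, 3439 and 3654 FPKM in siHHEX, 2027 and 1973 FPKM in siYAP/TAZ and 2712 FPKM in siTEAD1/2/3/4. *KRT8* and *KRT18* fell in siYAP/TAZ (-0.88 and -1.22), and *EPCAM* and *KRT18* in siHHEX (-0.38 and -0.29). With the GC and length correction, *EPCAM* did not pass in siHHEX (-0.25, adjusted p = 0.106). *KRT18* (-0.68, adjusted p = 0.00485) and *KRT8* (-0.34, adjusted p = 0.0433) were called lower in siHHEX with it. The leukocyte list summed to 3.97 and 4.06 FPKM in siNC, 3.60, 4.17 and 6.78 FPKM in siHHEX and 8.18 and 6.67 FPKM in siYAP/TAZ, most of it *CD68* and, in siHHEX 3 and both siYAP/TAZ libraries, *LYZ*, and *PTPRC* did not exceed 0.101 FPKM in any library. The fibroblast list summed to at most 2.76 FPKM (siYAP/TAZ 2), most of it *COL1A1*, the endothelial list to at most 0.221 FPKM and the erythroid list to at most 0.419 FPKM, with *HBB* at 0 throughout. The leukocyte sum was above the levels of *PSMB8*, *PSMB9* and *PSMG4* in every library, and the part of these lists in the members' values was not tested.

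Some levels are less certain than others. In GENCODE, 17 of the 48 genes share exon positions with a gene on the other strand, 2 with a gene on their own strand, and 17 have 1 or more named pseudogenes. The sources used here do not say whether strand was used in counting. *PSME1* (opposite *EMC9*), *PSME2* (opposite *RNF31*, with 6 named pseudogenes), *PSME3* (opposite *BECN1*), *PSME4* (opposite *ACYP2*) and *PSMG3* (opposite *PSMG3-AS1*) are among them, while *PSMB4*, *PSMB5*, *PSMB10*, *PSMC3* and *PSMD3* have neither overlap nor named pseudogenes.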

How the data were processed

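The deposited FPKM values of the authors (fragments per kilobase of transcript per total of mapped fragments) were used as they stand for 20030 rows in each of 8 libraries. The submitters' processing notes name Trimmomatic 0.36, HISAT2 2.0.5, Cufflinks 2.2.1 and HTSeq 0.9.1 without their roles. The genome build of the RNA-seq and the strand setting are not given in the sources used here. Since FPKM are not counts, no count test was made, and log2(FPKM + 1) was tested with limma 3.58.1 (R 4.3.3, trend on mean level, 1 fit of all libraries) for the 10677 genes at 1 FPKM or more in 2 libraries, with Benjamini-Hochberg adjustment over them; 9353 genes were not tested. The fit was tested on simulated data first. Read depth per library is unknown, so that no counting interval is given. A correction took off each library a spline (4 degrees of freedom) on GC content and log length of the canonical GENCODE 44 transcript (GRCh38), for the 10349 tested genes with a match. Promoters are from RefSeq (GRCh38). Genes with values in every library were named by rule: the 3 lowest and 3 highest called members of siHHEX and siYAP/TAZ, the 2 lowest and 2 highest in siTEAD1/2/3/4, and genes fixed by role (catalytic and inducible subunits, ubiquitin receptors, caps, chaperones). *PSMA7*, *PSMB2* and the list genes shown by library were added after their values were seen. The members, the lists (partners, transcription, shuttle and segregase, ubiquitin and E1, antigen processing, knockdown targets, and markers of epithelium, leukocytes, fibroblasts, endothelium and erythroid cells) and the tests were chosen with earlier results of these data known. Alternatives were another pseudocount (0.1), no filter, other sets of libraries, a replicate block, median scaling, the correction and a 2-fold criterion. Some genes of these lists are not reported here. Other steps used Python 3.11.15.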

Additional observations from a re-analysis of the deposited data

How the results depend on the processing

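The counts of members called in siHHEX were 8 lower and 8 higher as reported, and with no filter on low values they were 4 and 4 (5.35% and 6.37% of all genes tested). With the replicate number as a block (replicate block) they were 4 lower and 2 higher (9.73% and 9.58%), with the GC and length correction 1 and 0, with this correction and the replicate block together 0 and 0 (0.879% and 0.580%), and by the 2-fold criterion 0 and 0. Leaving out 1 library at a time gave 0 to 9 lower and 0 to 13 higher, with 0 in both directions without siNC 1 and without siNC 2. In siYAP/TAZ, 0 members were called, and the fit of only the groups compared called 2 lower and 1 higher, median scaling 1 lower (337 lower and 350 higher of all tested genes), the replicate block 1 higher (7.30%), the correction 3 lower, and the correction with the block 1 lower (4.48%). Leaving out 1 library gave 0 to 2 lower and 0 to 1 higher. For siHHEX against siYAP/TAZ (9 lower, 13 higher), the block gave 2 lower (18.02%), median scaling 5 lower and 20 higher, the correction 1 lower and 7 higher, the correction with the block 0 lower and 2 higher (0.986% and 0.908%), and the 2-fold criterion 0 in both directions, and leaving out 1 library gave 0 to 10 lower and 2 to 17 higher. The median of all members in siHHEX was -0.00836 with the correction and block. In siYAP/TAZ it was -0.19 with median scaling, with the correction and with the correction and block, -0.10 against siNC 1 alone and -0.11 against siNC 2 alone, and leaving out 1 library gave -0.105 to -0.0905. The core median in siYAP/TAZ was -0.16 under these same 3 settings, and leaving out 1 library gave -0.10 to -0.0561. The regulatory median was 0.0011 in siHHEX with the correction, -0.0657 in siTEAD1/2/3/4 with median scaling, and in siYAP/TAZ -0.26 with median scaling and -0.23 with the correction, with or without the block. The activator median was -0.0589 in siHHEX with the correction and -0.0350 with the block added, and in siYAP/TAZ -0.0111 with median scaling and -0.0505 with the correction, with or without the block. The chaperone median was -0.0026 in siHHEX with the correction and -0.0152 with the block added, and in siYAP/TAZ -0.31 with median scaling and -0.29 with the correction, with or without the block, and leaving out 1 library gave -0.285 to -0.141. Of 1890 values of single members under an alternative, 1531 kept direction and side of the threshold, 89 were uncalled in both fits and changed sign (26 of them with the correction and 26 with the correction and block), 218 lost the call, 41 gained it and 11 changed sign with a call in either fit. The last were *PSMA4* (0.0335 with the correction, 0.0613 with the block added), *PSMC2* (0.0869 and 0.0642), *PSMD12* (0.20 and 0.17), *PSMD5* (0.11 and 0.0853) and *PSMA5* (0.46 with the correction) in siHHEX against siYAP/TAZ, and in siHHEX *PSMC2* (0.00466 with the correction) and *PSMG3* (-0.00836 with the correction and block), and the cause was not tested. Same-numbered libraries did not deviate together (correlations of deviations from the group means -0.07 to 0.02). With 2 or 3 libraries in a group, these values cannot decide whether the numbers pair the samples. Read numbers are unknown, so that the counting error of the low genes *PSMB8*, *PSMB9*, *PSMB11* and *PSMG4* could not be given.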
